A study of Haberlea rhodopensis with 10 samples.

Results

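The cell cycle, replication and histone genes of the resurrection plant Haberlea rhodopensis were followed through desiccation and recovery of its leaves. The members were the assembled transcripts (unigenes) that reached an FPKM (fragments per kilobase of transcript, scaled to the size of the library) of at least 1 in at least 2 of the 10 libraries and whose Swiss-Prot description, or the Nr description where there was none, named an A, B or D cyclin, a cyclin-dependent kinase (CDK), a DNA replication licensing factor or the proliferating cell nuclear antigen (PCNA), or opened with the name of histone H1, H2A, H2B, H3 or H4. A total of 371 unigenes matched by name, 92 of them did not reach the expression limit, and 279 of the 85267 unigenes above that limit were members, out of 142473 unigenes in all. They comprised 50 cyclins, 46 CDKs and CDK subunits, 39 CDK inhibitors, 15 MCM and PCNA unigenes, 125 histones and 4 calcyclin-binding proteins, which share only letters with the searched names. The second-highest FPKM of the member nearest the limit, the centromeric histone Unigene37997, was 1.002, and that of the nearest unigene outside, the cyclin-A1-1 CL7231.Contig1, was 0.989. The limit also favours a difference where a member passed it through 1 stage alone, as 15 members did: 9 through the 2 F libraries, 2 through those of D20 and 4 through those of R. These 9 hold 5 of the lower calls at D20 against F, 5 of those at DT and 3 of those at D75 given below.

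In plants, D cyclins bind CDKs to start the cycle, A and B cyclins carry cells through replication and mitosis, and CDK inhibitors of the KRP and SIAMESE-related families hold these complexes back. MCM proteins license and unwind replication origins, PCNA clamps the polymerase to DNA, and most core histones are made in S phase to package new DNA, whereas replacement histones such as H3.3 are also made outside it. Mature leaf cells have largely left the division cycle, so their levels of these transcripts are commonly low, and CDKs of the C, D, E, F and G classes also serve transcription, splicing or the activation of other kinases.

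Plants propagated in vitro and grown in pots lost water over at least 8 days, stayed dry for 10 days and were then watered for a week, and RNA came from mature leaves of the rosette middle, from at least 4 plants per sampling point. The 5 stages were fresh leaves (F, relative water content given as 100% in the sample labels and 90% in the protocol), 2 stages of dehydration (D75, 75%, and D20, 20%), fully dried leaves (DT, under 5% in the labels and 6% in the protocol) and leaves after rehydration (R, 100% and 90%). Each stage had 2 libraries, the labels give no difference in genotype between stages, and plants kept watered until the time of R are not analysed here. How the plants were divided over the 2 libraries was not given in the sources used here, so the tests measure the spread between libraries.

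The libraries held 4522835 (F replicate 2) to 12734565 (D20 replicate 2) assigned fragments, and log levels of all unigenes correlated between the replicates of a stage with r from 0.785 at D75 to 0.955 at D20. Levels are given as scaled FPKM, divided by edgeR's TMM factor, which corrects each library for its composition. F replicate 2 had the largest such factor (1.477), and D75 replicate 2 exceeded D75 replicate 1 in 197 members against 72 in the opposite direction. The leaf label was checked against markers: the 49 unigenes of the Rubisco small subunit and chlorophyll a-b binding proteins summed to a scaled FPKM of 33043 and 31323 in F, 573 and 937 in D20, 3514 and 3166 in DT, and 34812 and 30754 in R. The bulk samples do not separate fewer cells of a type from less RNA per cell. These 10 libraries also show only transcript levels, and no count of divisions or of cells in S phase was used here.

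Dehydration lowered many more members than it raised, and rehydration raised many of them again. At D20, 73 of the 279 members were lower than at F and 29 were higher in edgeR's quasi-likelihood test (adjusted p below 0.05), that is 26.2% and 10.4%, against 17.8% and 14.0% of all unigenes tested and 31.8% in either direction. The median log2 change of the members was -0.74 (-0.72 with members at 0 in a stage set to their bound), and that of all unigenes was -0.33. At DT, 63 members were lower and 21 higher than at F, or 22.6% and 7.53%, against 12.4% and 10.1% of all unigenes and 22.5% in either direction. Without D20 replicate 1 or 2 the total at D20 was 64 or 59 members rather than 102. The total at DT, 84, was 51 without F replicate 2, 42 without DT replicate 1 and 49 without DT replicate 2.

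Against DT, 54 members were higher at R and 11 lower (19.4% and 3.94%, against 9.3% and 5.96% of all unigenes and 15.3% in either direction). Against D20, 76 were higher at R and 18 lower (27.2% and 6.45%, against 14.9% and 11.0% of all unigenes and 25.9% in either direction). These comparisons share the R libraries with each other and the dried libraries with those above. The total of 65 for R against DT was 121 and 114 without D75 replicate 1 and 2, 22 and 27 without DT replicate 1 and 2, and 21 and 42 without R replicate 1 and 2. The total of 94 for R against D20 was 38 without D20 replicate 1, 38 without D20 replicate 2 and 39 without R replicate 1. Of the 73 members lower at D20, 39 were called in each of the 10 fits that left out 1 library, as were 25 of the 76 higher at R than at D20 and 17 of the 54 higher at R than at DT.

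**Figure D1:**
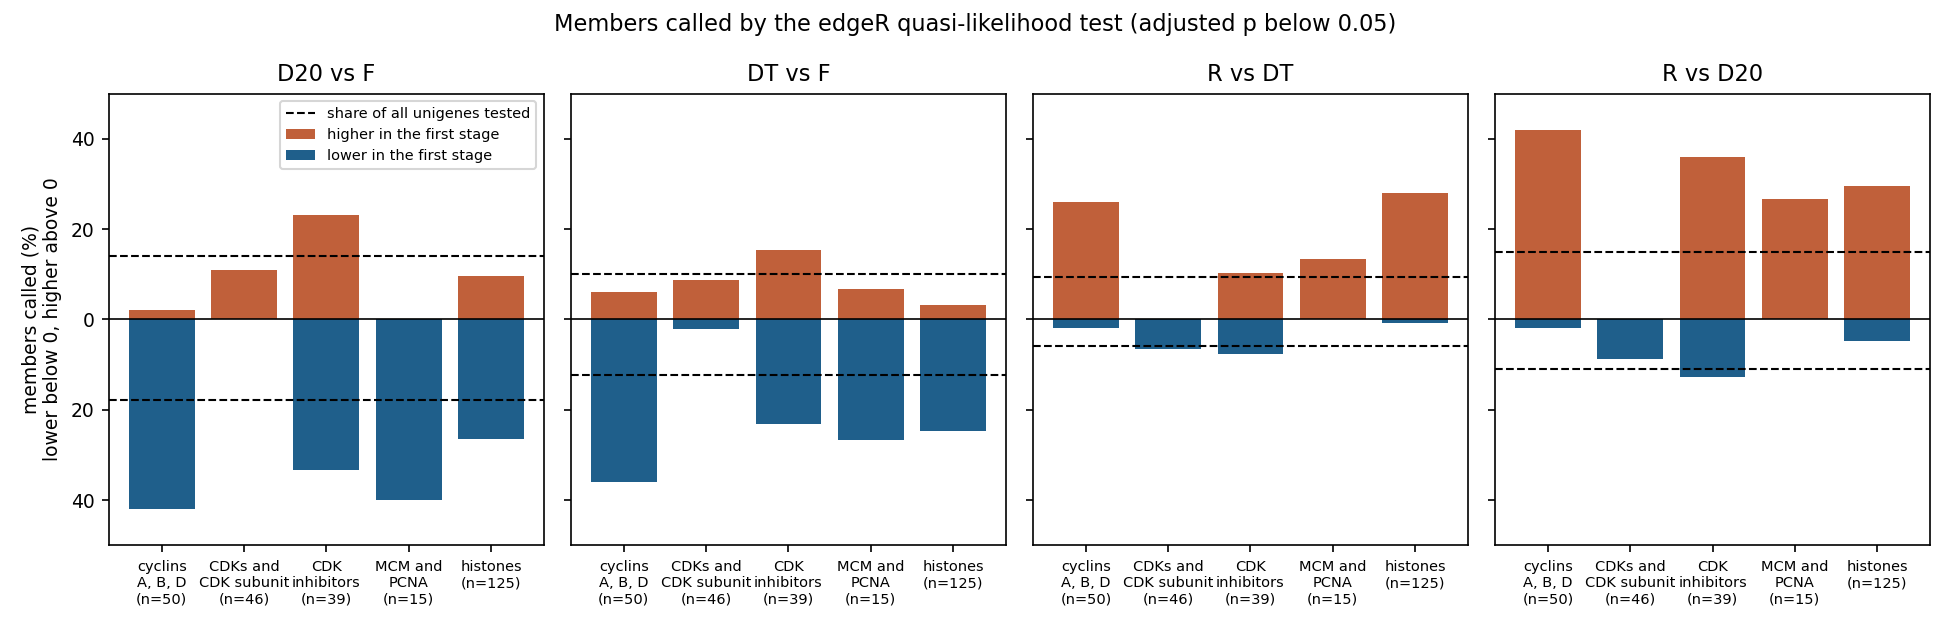
Share of members called (y axis, percent, higher above 0 and lower below 0) for cyclins, CDKs, CDK inhibitors, MCM with PCNA, and histones (x axis) in 4 comparisons, with dashed lines for the share of all unigenes tested. At D20, 42.0% of the 50 cyclins and none of the 46 CDKs were lower than at F, while 17.8% of all unigenes were.

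At D75 little passed the test: 3 members were higher and 11 lower than at F (1.08% and 3.94%, against 0.671% and 1.16% of all unigenes and 1.83% in either direction). The 11 lower members were 7 D cyclins, 3 H3.2 unigenes and 1 H4 unigene. The total of 14 was 0 without F replicate 2, 42 without D75 replicate 1 and 67 without D75 replicate 2, and it lay from 4 to 8 without any 1 of the other libraries, so none of the 14 was called in all of these fits.

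No member differed between R and F by edgeR's quasi-likelihood test, against 0.0387% of all unigenes called in either direction (0.0293% higher and 0.00938% lower). At an unadjusted p below 0.05 there were 36 members (12.9%, against 8.75% of all unigenes), and DESeq2, edgeR's exact test and limma called 0, 1 and 0 members. Leaving out D75 replicate 1 or 2 gave 5 or 6 calls, and a fit of the 4 F and R libraries alone gave 3 higher and 7 lower. The lowest adjusted p was 0.281, for the cyclin-D1-1 unigene CL8615.Contig6, at a log2 of -2.61 ± 0.68 (SE). With 2 libraries a stage an exact permutation test cannot go below p = 0.333, and a p above the threshold does not show that R and F were alike. The role sums at R lay between 39.0% (the single H2A variant) and 207% (H1) of those at F, and without F replicate 1 they reached 355% (centromeric H3).

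**Figure D2:**
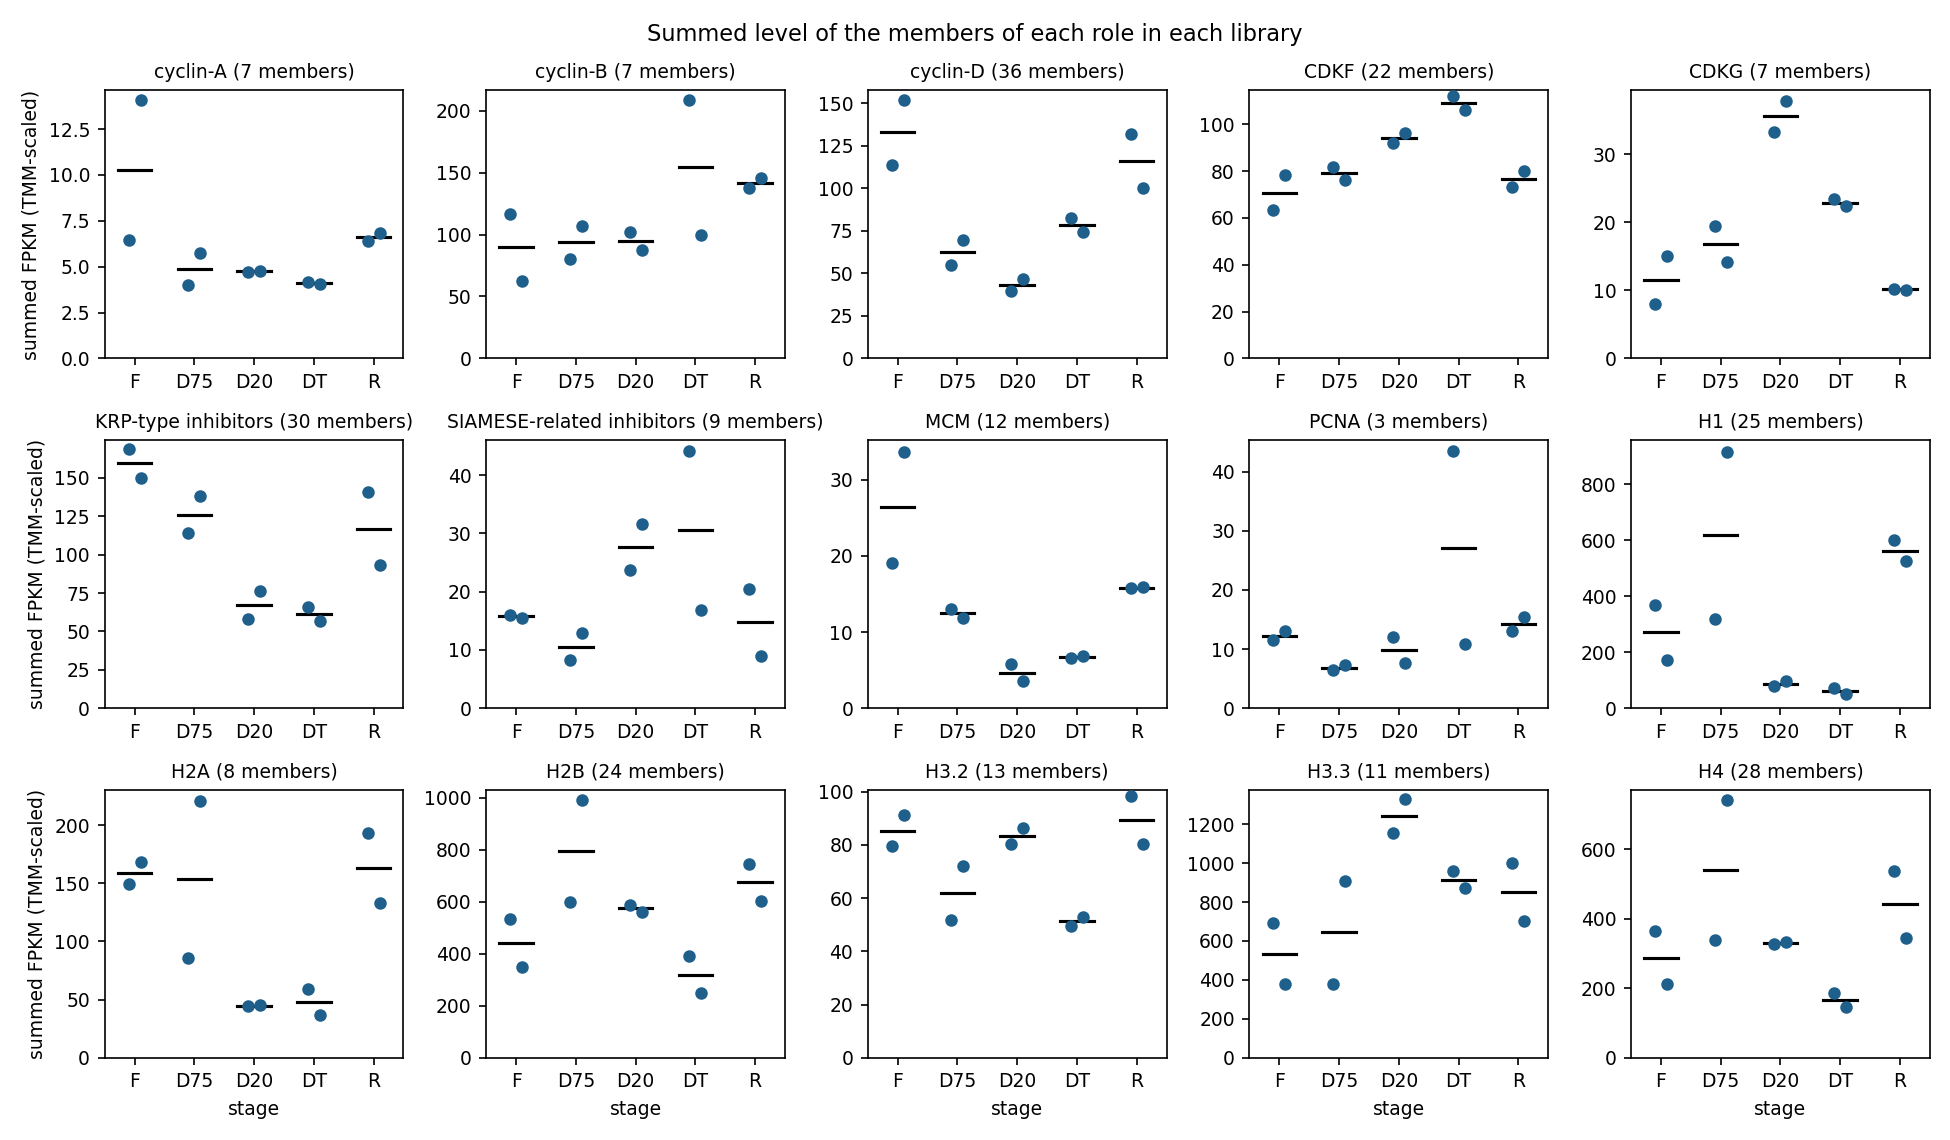
Summed TMM-scaled FPKM of the members of 15 roles (y axis, starting at 0) in the 2 libraries (points) of each stage (x axis), with a bar at the stage mean. MCM, KRP inhibitors, H1 and H2A have their lowest stage means at D20 and DT. Cyclin D is lowest at D20, with the means at D75 and DT also below F and R. H3.3, CDKF, CDKG and SIAMESE-related inhibitors have their highest stage means at D20 or DT.

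Counts by role from here on are to be read against the shares of all unigenes called. These were 17.8% lower and 14.0% higher at D20 against F, and 12.4% and 10.1% at DT. At D75 they were 1.16% and 0.671%. For R they were 9.3% higher and 5.96% lower against DT, and 14.9% and 11.0% against D20. The D cyclins, which sense growth signals and open the cycle, were lower in many members at D20. Of the 36 D cyclin unigenes, 18 were lower and none higher at D20 than at F, 15 were lower and 2 higher at DT, and 7 were lower at D75, 3 of which had passed the expression limit through F alone. Lower calls at D20 included 5 of 7 cyclin-D1-1, 5 of 7 cyclin-D3-1 and 2 of 2 cyclin-D6-1 unigenes. At R, 18 were higher than at D20 and 11 higher than at DT, with none lower. The summed scaled FPKM was 114 and 152 in F, 54.9 and 69.9 in D75, 39.8 and 46.6 in D20, 82.6 and 74.1 in DT, and 132 and 100 in R. The stage mean at R was 87.2% of that at F (76.3% without F replicate 1, 102% without F replicate 2), and that at DT 58.9%. Both R libraries lay above all libraries of D75, D20 and DT.

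Unigene6214, annotated as cyclin-D3-1, had a scaled FPKM of 7.66 and 9.01 in F, 0.349 and 0.498 in D75, no fragment at D20 or DT, and 3.71 and 3.58 in R. Both F libraries and both R libraries stood above all 6 dehydrated libraries without overlap. It was at least 71.5-fold lower at D20 (adjusted p = 7.3e-05) and at least 62.6-fold lower at DT (adjusted p = 1.8e-04) than at F, with the floor set at 3 fragments over the 2 libraries of the empty stage, and at least 27.7-fold higher at R than at DT (adjusted p = 6.3e-04). At D75 it was already lower than at F by a log2 of -4.27 ± 0.54 (adjusted p = 0.0105), a call lost without F replicate 2. Its log2 of R against F was -1.2 ± 0.46 (adjusted p = 0.516).

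A further cyclin-D3-1, Unigene6977, followed with 5.19 and 10.1 in F, 0.751 and 1 in D75, none at D20 and DT, and 3.73 and 1.54 in R. The cyclin-D1-1 CL8615.Contig7 had 2.95 and 7.13 in F, 0.868 and 0.86 in D75, at most 0.0513 in the 4 libraries of D20 and DT, and 1.63 and 1.23 in R. In both, F and R did not overlap with D20 and DT, and the D20 levels were at least 62.7-fold and 68.1-fold below F (adjusted p = 2.3e-04 and 1.3e-04).

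The R level reached less of the F level in CL8615.Contig5, another cyclin-D1-1, with 7.4 and 14.3 in F, 2.18 and 0.433 in R, and none at D20 and DT. The cyclin-D6-1 CL9377.Contig2 had 2.59 and 7.72 in F and 0.857 and 0.462 in R. Their log2 values of R against F were -3.06 ± 0.78 (adjusted p = 0.294) and -2.95 ± 0.98 (adjusted p = 0.439), so neither passed the test, although both R libraries lay below both F libraries. Each was higher at R than at D20, by at least 8.78-fold and 4.2-fold (adjusted p = 0.0127 and 0.049), the first lost without either D20 library or R replicate 1 and the second kept only in the fits without a D75 library.

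D cyclins did not all move together, also within 1 assembly cluster. CL349.Contig11, annotated as cyclin-D3-2 and picked after its values were seen, had 6.32 and 8.16 in F, 2.68 and 4.23 in D75, 0.402 and 0.548 in D20, 0.636 and 0.829 in DT, and 11.1 and 9.64 in R. It fell by 3.92 ± 0.48 on the log2 scale at D20 (adjusted p = 1.5e-04) and was higher at R than at DT by 3.81 ± 0.47 (adjusted p = 5.1e-04). CL349.Contig8 of the same cluster, a cyclin-D3-3, had 7.14 and 7.41 in F, 11.2 and 13 in D20, 25.2 and 16.7 in DT, and 13.7 and 11.2 in R. It rose at DT by a log2 of 1.52 ± 0.42 (adjusted p = 0.0219), a call lost without F replicate 1, F replicate 2 or DT replicate 1. Contigs of 1 cluster share sequence, so fragments may be divided among them.

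Among the 7 A cyclins, which act in S phase and G2, 2 were lower and 1 higher at D20 than at F. Their summed scaled FPKM was 6.48 and 14.1 in F, 4.72 and 4.76 in D20, 4.16 and 4.08 in DT, and 6.39 and 6.82 in R. The cyclin-A2-2 CL713.Contig1 had 2.32 and 3.73 in F, 0.623 and 0.718 in D75, 0.0729 and 0 in D20, 0 and 0.164 in DT, and 1.48 and 1.31 in R. The F level was 79.0 times the D20 level (counting interval 13.7 to 3170, which covers counting error only), with an adjusted p of 9.3e-04, and R lay below both F libraries at a log2 of -1.11 ± 0.67 (adjusted p = 0.646). CL7231.Contig2, a cyclin-A1-1, had 1.19 and 3.65 in F, no fragment at DT, and 1.11 and 1.4 in R, and was at least 14.0-fold higher at R than at DT (adjusted p = 0.00291).

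The cyclin-A3-1 Unigene9741, named after its values were seen, went the other way. It had 0.172 and 0.353 in F, 0 and 0.193 in D75, 2.11 and 3.12 in D20, 1.77 and 1.85 in DT, and 0 and 0.0881 in R. All 4 libraries of D20 and DT lay above all others, and the log2 of D20 against F was 3.31 ± 0.9 (adjusted p = 0.0153), a call lost without F replicate 1, F replicate 2 or D20 replicate 2. Its level was below an FPKM of 4 throughout.

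The B cyclins, which drive mitosis, gave a divided picture because 5 of the 7 members named as cyclin-B carry a KEGG assignment to the proteasome maturation protein. These 5, all of the cluster CL3731, held nearly the whole level of the role, with CL3731.Contig2 at 92.1 and 46.6 in F, 69 and 60.1 in D20, 166 and 74.8 in DT, and 105 and 118 in R. None of the 5 was called in any comparison, and their name and their KEGG entry cannot both be taken as given. The 2 members left were scarce. CL1939.Contig9, a putative cyclin-B3-1, had 1.09 and 0.694 in F, 1.34 and 0.92 in D75, 0 at D20, 0.0783 and 0.0742 in DT, and 0.393 and 0.371 in R, at least 9.2-fold lower at D20 than at F (adjusted p = 0.00267). Its R libraries lay below both F libraries (log2 -1.22 ± 0.76, adjusted p = 0.654). Unigene69268, annotated as cyclin-B2-5, had fragments in only 2 libraries, at 0.741 in F replicate 2 and 1.76 in R replicate 1.

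Since the search terms missed cyclins described as G2/mitotic-specific, 13 such unigenes were counted beside the members. Of these, 4 were lower at D20 and 5 at DT than at F, 4 were higher at R than at D20, and 1 was higher and 1 lower at R than at DT. Their summed scaled FPKM was 16.2 and 31.9 in F, 5.91 and 6.62 in D75, 5.97 and 4.12 in D20, 10.6 and 5.51 in DT, and 20.9 and 7.58 in R. The R libraries thus differed from each other by more than R replicate 2 differed from the dried ones. In the members, R replicate 1 exceeded R replicate 2 in 185 and was below it in 93.

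**Figure D3:**
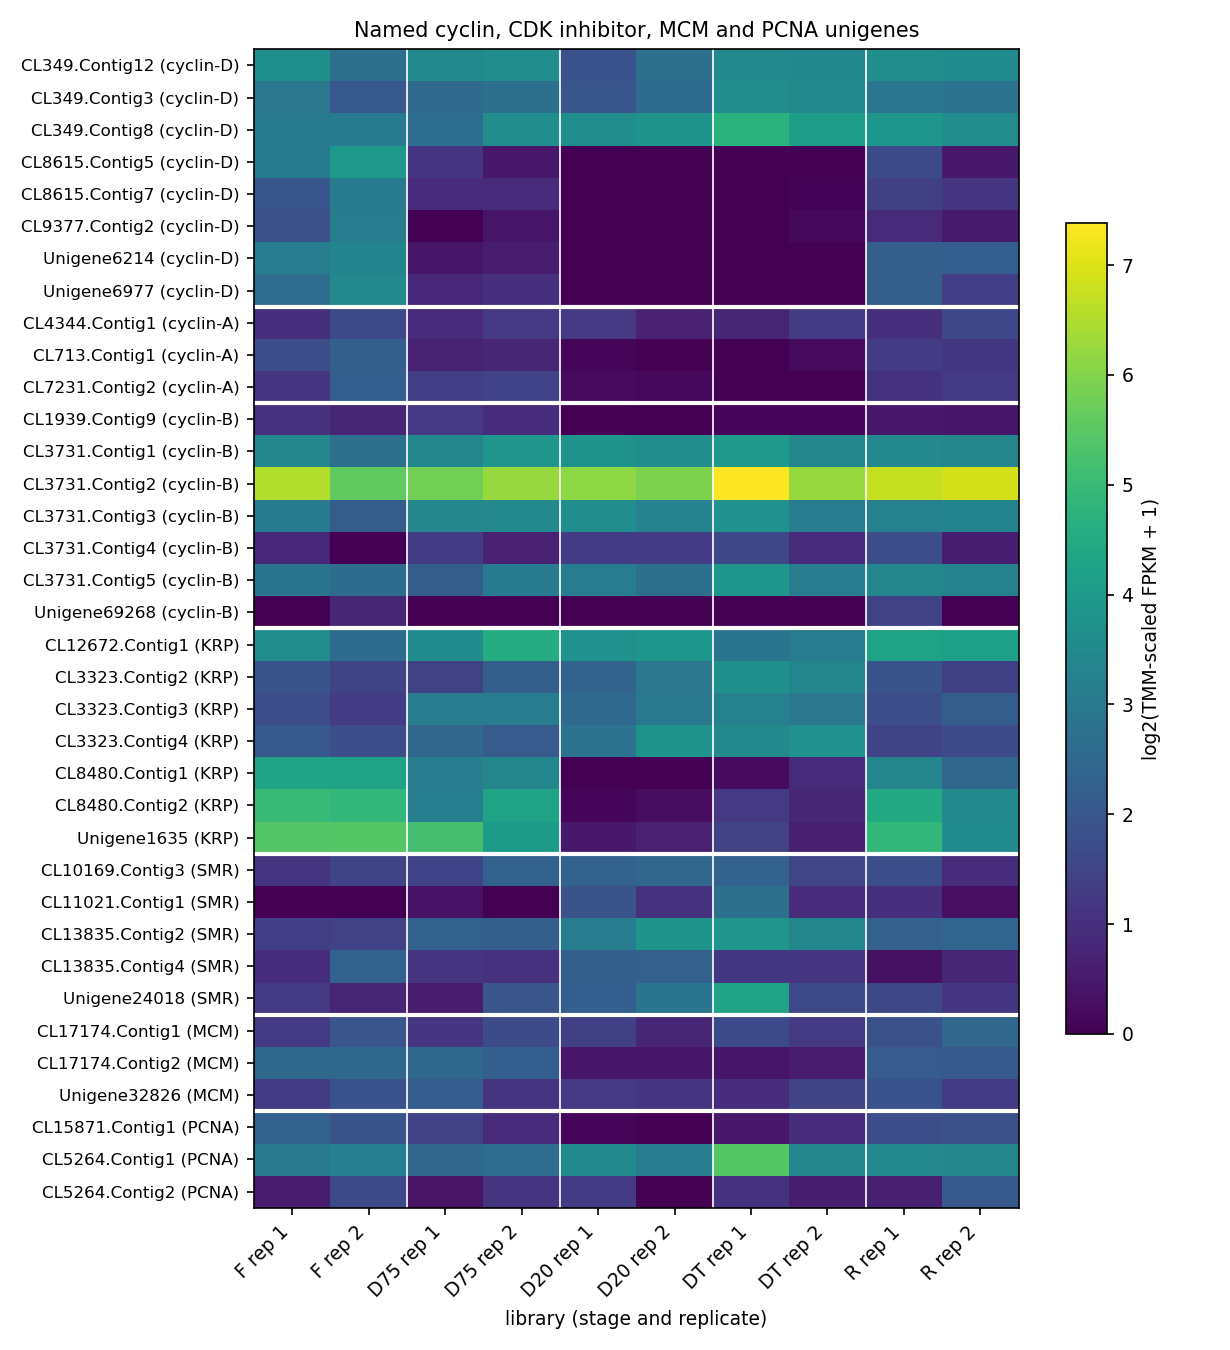
Level of the named cyclin, CDK inhibitor, MCM and PCNA unigenes (rows, grouped by role between white lines) in each of the 10 libraries (columns), as log2 of the TMM-scaled FPKM plus 1. The D cyclins CL8615.Contig5, CL8615.Contig7, CL9377.Contig2, Unigene6214 and Unigene6977 and the KRP unigenes CL8480.Contig1, CL8480.Contig2 and Unigene1635 are dark at D20 and DT and lighter at F and R.

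The CDKs among the members moved less than the cyclins. At D20, 5 of the 46 CDKs and CDK subunits were higher than at F and none was lower, and at DT 4 were higher and 1 lower. At R, 4 were lower than at D20 and 3 lower than at DT, with none higher. No CDKC, CDKD, CDKE or CDK subunit unigene was called in any comparison. Only 1 unigene was named as a B-type CDK, the mitotic type of plants, and it did not reach the expression limit.

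CL13279.Contig2, annotated as the CDK-activating kinase CDKF-1, had 6.77 and 6.24 in F, 2.54 and 8.32 in D75, 38.4 and 39.7 in D20, 39.6 and 35.1 in DT, and 10 and 11 in R. All libraries of D20 and DT lay above all others. It rose by a log2 of 2.57 ± 0.49 at D20 (adjusted p = 0.00204) and 2.51 ± 0.49 at DT (adjusted p = 0.00362), in every fit that left out 1 library, and was lower at R than at DT by 1.83 ± 0.48 on the log2 scale (adjusted p = 0.0227), a call lost without either library of DT or R. The other 21 CDKF members carry the KEGG name male germ cell-associated kinase and are described as CDKF-4 or similar. Of these, CL2954.Contig23, with 14.8 and 16.8 in F, 13.2 and 14.5 in D20, 23.7 and 18.6 in DT, and 23.1 and 24.2 in R, was not called in any comparison.

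Of the 7 CDKG unigenes, a class linked to splicing in Arabidopsis, 5 had their highest stage mean at D20. Unigene31839 had 0.785 and 1.48 in F, 3.7 and 6.75 in D75, 9.56 and 11 in D20, 4.03 and 3.02 in DT, and 2.56 and 2.11 in R, and rose at D20 by a log2 of 3.19 ± 0.51 (adjusted p = 7.4e-04). Unigene31824 had 2.73 and 5.65 in F, 13.1 and 14.7 in D20, 10.4 and 8.31 in DT, and 2.62 and 3.08 in R. Its fall from D20 to R was 2.29 ± 0.51 on the log2 scale (adjusted p = 0.00658), lost without either R library. The CDK subunit CL3242.Contig1, which helps CDKs dock on their targets, reached 316 and 734 at D75 against 189 and 61 in F, with a gap between the replicates of each stage and no call.

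Kinases described as cell division control protein 2 (CDC2) homologs, a name that the search terms did not find, were counted beside the members. There were 11 such unigenes, which were not divided into A-type and B-type CDKs. Of these, 8 were lower at D20 and 6 at DT than at F, with none higher, and 4 were higher at R than at DT. CL1211.Contig3, chosen after its values were seen, had 58.4 and 43.3 in F, 16.9 and 17.5 in D75, 0.295 and 0.151 in D20, 0.963 and 0.581 in DT, and 48.5 and 29.2 in R. F and R overlapped, D75 lay below both, and D20 and DT lay below D75. Its log2 was -7.78 ± 0.58 at D20 against F (adjusted p = 2.7e-05), 5.64 ± 0.51 at R against DT (adjusted p = 1.6e-04) and -0.4 ± 0.4 at R against F (adjusted p = 0.777).

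CDK inhibitors changed in both directions. Of the 30 KRP-type inhibitors, 12 were lower and 6 higher at D20 than at F, 9 were lower and 3 higher at DT, and 13 were higher and 3 lower at R than at D20. The lower calls at D20 comprised 7 of the 12 unigenes described as CDK inhibitor 7 and all 3 described as inhibitor 6, and the higher ones 5 of the 10 described as inhibitor 3, with none of inhibitor 3 lower. Those that fell included the most abundant one, Unigene1635, described as CDK inhibitor 7, with 41.3 and 42.5 in F, 35.6 and 15.3 in D75, 0.432 and 0.589 in D20, 1.71 and 0.567 in DT, and 28.9 and 10.7 in R. It fell by 6.35 ± 0.75 on the log2 scale at D20 (adjusted p = 1.2e-04) and was higher at R than at DT by 4.12 ± 0.67 (adjusted p = 0.00207). Both R libraries lay below both F libraries, at a log2 of -1.09 ± 0.57 (adjusted p = 0.601).

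CL8480.Contig1, also described as inhibitor 7, had 18.9 and 17.9 in F, 7.66 and 9.57 in D75, none at D20, 0.152 and 0.865 in DT, and 9.17 and 4.47 in R. It was at least 94.9-fold lower at D20 than at F (adjusted p = 8.8e-05) and at least 34.7-fold higher at R than at D20 (adjusted p = 3.7e-04). CL8480.Contig2 had 30.8 and 28.6 in F, 0.0952 and 0.195 in D20, and 21.9 and 10.5 in R, with the lowest adjusted p of any member at D20 (4.7e-05).

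The KRP unigenes that rose lay in the clusters CL3323, CL4929 and CL18502. CL3323.Contig4 had 3.09 and 2.44 in F, 4.38 and 3.36 in D75, 5.98 and 12.8 in D20, 10.2 and 12.2 in DT, and 1.83 and 2.21 in R. Its log2 was 2.0 ± 0.46 at DT against F (adjusted p = 0.00923), lost without F replicate 1, F replicate 2 or DT replicate 2, and -2.47 ± 0.47 at R against DT (adjusted p = 0.00507), lost without R replicate 1. CL3323.Contig2 had 2.76 and 1.83 in F, 12.1 and 9.5 in DT, and 2.81 and 1.64 in R.

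Of the 9 SIAMESE-related inhibitors, which in Arabidopsis stop mitosis and accompany endoreduplication and stress, 3 were higher and 1 lower at D20 than at F, and 3 were higher at DT. CL13835.Contig2 had 1.59 and 1.7 in F, 3.92 and 3.71 in D75, 7.75 and 13.2 in D20, 13.4 and 9.44 in DT, and 3.85 and 4.36 in R. The R libraries overlapped with D75 and lay above both F libraries. It rose by a log2 of 2.65 ± 0.5 at D20 (adjusted p = 0.00196) and 2.77 ± 0.5 at DT (adjusted p = 0.00239) in all fits that left out 1 library. The fall from DT to R, 1.47 ± 0.46 on the log2 scale (adjusted p = 0.0477), was kept only in the fits without a D75 library. CL11021.Contig1 had no fragment at F, 2.7 and 1.06 in D20, and 5.67 and 0.934 in DT, at least 4.78-fold and 8.2-fold above F (adjusted p = 0.0415 and 0.0279), but with the fragments of its cluster summed the direction turned, to a log2 of -1.28 and -0.3, since CL11021.Contig2 of the same cluster had 5.94 and 3.62 in F and none at D20.

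Of the 15 MCM and PCNA unigenes, 6 were lower at D20 and 4 at DT than at F, and 1, a PCNA unigene, was higher at DT. None of the 12 MCM unigenes was higher at D20 or DT than at F, 5 were lower at D20 and 3 at DT, and 3 were higher at R than at D20. Their summed scaled FPKM was 19.1 and 33.7 in F, 13 and 11.9 in D75, 5.75 and 3.54 in D20, 6.54 and 6.85 in DT, and 15.8 and 15.9 in R. Both R libraries lay above all libraries of the dehydrated stages and below both F libraries, and none of the 12 passed the test between R and F. Since 4 of the 12 passed the expression limit through F alone, the sum and the count lean towards F, and 1 of the 5 lower at D20 was among those 4. By KEGG the 12 were 3 MCM2, 4 MCM3, 1 MCM4, 1 MCM6, 2 MCM8 and 1 MCM9 unigenes, and several share a cluster or a short length.

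CL17174.Contig2, assigned to MCM2 by KEGG, had 4.51 and 4.64 in F, 4.53 and 3.62 in D75, 0.363 and 0.371 in D20, 0.359 and 0.476 in DT, and 3.32 and 3.2 in R. The 2 libraries of each stage were close, D75 was near F, and the dried stages lay below all others. It fell by 3.62 ± 0.48 on the log2 scale at D20 (adjusted p = 2.2e-04) and 3.44 ± 0.48 at DT (adjusted p = 5.3e-04), and was higher at R than at DT by 2.94 ± 0.48 (adjusted p = 0.00202), in all fits that left out 1 library. Against F the log2 at R was -0.5 ± 0.4 (adjusted p = 0.73). Among 7 unigenes described as PROLIFERA (MCM7) or MCM10, counted beside the members, 5 were lower at D20, 5 at DT, and 3 were higher at R than at DT.

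The 3 PCNA unigenes differed from each other. CL15871.Contig1 had 4.02 and 2.75 in F, 1.74 and 0.89 in D75, 0.0678 and 0 in D20, 0.403 and 0.916 in DT, and 2.35 and 2.59 in R. The F level was 102 times that of D20 (counting interval 17.7 to 4060; adjusted p = 3.7e-04), and the R level 72.1 times that of D20 (12.5 to 2890; adjusted p = 8.9e-04). CL5264.Contig1 had 6.95 and 8.13 in F, 10.6 and 7.6 in D20, 42 and 9.31 in DT, and 10.2 and 9.69 in R. Its call at DT (log2 1.76 ± 0.57, adjusted p = 0.0427) rested on DT replicate 1, without which the log2 was 0.3, and no other call was made for it. CL5264.Contig2, at 3.18 or less, was not called.

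Further lists of the replication and division machinery, counted in the same fit and not members, are to be read against the 17.8% lower and 14.0% higher of all unigenes at D20. Of 85 replication enzymes, 21 were lower and 4 higher at D20 than at F, and of 6 origin licensing and firing unigenes 2 were lower. At R, 6 replication enzymes were higher and 1 lower than at DT (7.06% and 1.18%, against 9.3% and 5.96% of all unigenes). Against D20, 11 replication enzymes were higher at R and 2 lower (12.9% and 2.35%, against 14.9% and 11.0% of all unigenes). Of the 6 origin unigenes, 2 were higher at R than at DT. Of 17 unigenes of nucleotide supply, 7 were lower at D20 and 5 higher at R than at DT. Among 108 unigenes of mitosis and cytokinesis, 39 were lower and 6 higher at D20, and 17 were higher and 3 lower at R than at DT. Of 34 unigenes of the APC/C, which degrades mitotic cyclins, 9 were lower and 2 higher at D20, and of 40 G1/S and G2/M regulators 7 were lower and 6 higher, shares close to those of all unigenes. At R against DT, 2 APC/C unigenes were higher and 2 lower, and 3 of the G1/S and G2/M regulators were higher and 3 lower. None of these lists had a call between R and F.

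Examples from these lists, chosen after their values were seen, are enzymes that make DNA precursors. Thymidine kinase (Unigene19782), a transcript that rises in S phase, had 6.49 and 13.4 in F, 0.988 and 0.176 in D75, none at D20, 0.128 and 0.242 in DT, and 5 and 2.54 in R, and differed between R and DT (log2 4.24 ± 0.93, adjusted p = 0.0114), a call lost without either DT library or R replicate 1. The large subunit of ribonucleotide reductase (CL15767.Contig4) had 6.32 and 6.51 in F, 6.86 and 4.43 in D75, 0.356 and 0.727 in D20, 1.61 and 1.13 in DT, and 5.21 and 4.58 in R. Both lay lower at R than at F in both libraries, at adjusted p = 0.583 and 0.786.

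Histones formed the largest group, and 33 of the 125 were lower and 12 higher at D20 than at F. At DT, 31 were lower and 4 higher. At R, 35 were higher and 1 lower than at DT, and 37 were higher and 6 lower than at D20. The roles differed: H1, H2A and H2AX had lower calls against F with 1 exception, while H3.3 had only higher calls at D20. A further 26 histones whose description opens with Probable or PREDICTED, which the rule did not take, were counted beside the members. Of these, 4 were higher and 4 lower at D20 than at F (15.4% each), 1 was higher and 4 lower at DT, 1 (3.85%) was higher and none lower at R than at DT, and 4 were higher and 1 lower at R than at D20. They summed to 516 and 318 in F, 580 and 617 in D20, 521 and 412 in DT, and 663 and 539 in R.

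The linker histone H1 binds the DNA between nucleosomes. Of its 25 unigenes, 10 were lower and 1 higher at D20 than at F, 7 were lower at DT, 8 were higher at R than at DT and 10 higher than at D20. The summed scaled FPKM was 369 and 173 in F, 320 and 914 in D75, 78 and 97.2 in D20, 73 and 52.2 in DT, and 600 and 525 in R. Both R libraries lay above both F libraries, and D75 replicate 2 was the highest library. The stage mean at R was 207% of F (325% without F replicate 1, 152% without F replicate 2).

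CL15401.Contig3 had 48.7 and 33.1 in F, 38.8 and 158 in D75, 6.09 and 6.43 in D20, 2.91 and 2.54 in DT, and 105 and 97.6 in R. F and R were apart, with R above F, and D20 and DT lay below all others. The log2 was -2.71 ± 0.56 at D20 (adjusted p = 0.00347) and -3.91 ± 0.6 at DT (adjusted p = 9.5e-04) against F, and 5.21 ± 0.64 at R against DT (adjusted p = 5.0e-04), all called in each fit that left out 1 library. R against F was 1.3 ± 0.53 (adjusted p = 0.534). CL15401.Contig2 of the same cluster had 44.1 and 34.1 in F, 3.77 and 4.18 in D20, 6.28 and 3.88 in DT, and 96.4 and 73.1 in R.

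The most abundant H1 unigene, Unigene9581, had 169 and 34.3 in F, 140 and 424 in D75, 46.6 and 61.8 in D20, 40.1 and 24.9 in DT, and 220 and 207 in R. The F libraries differed so much that D20 lay between them, and it was called only for R against DT (log2 2.72 ± 0.71, adjusted p = 0.0226), a call lost without either library of DT or R. A further 3 unigenes described as H1 carry the KEGG name hypoxia up-regulated 1.

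**Figure D4:**
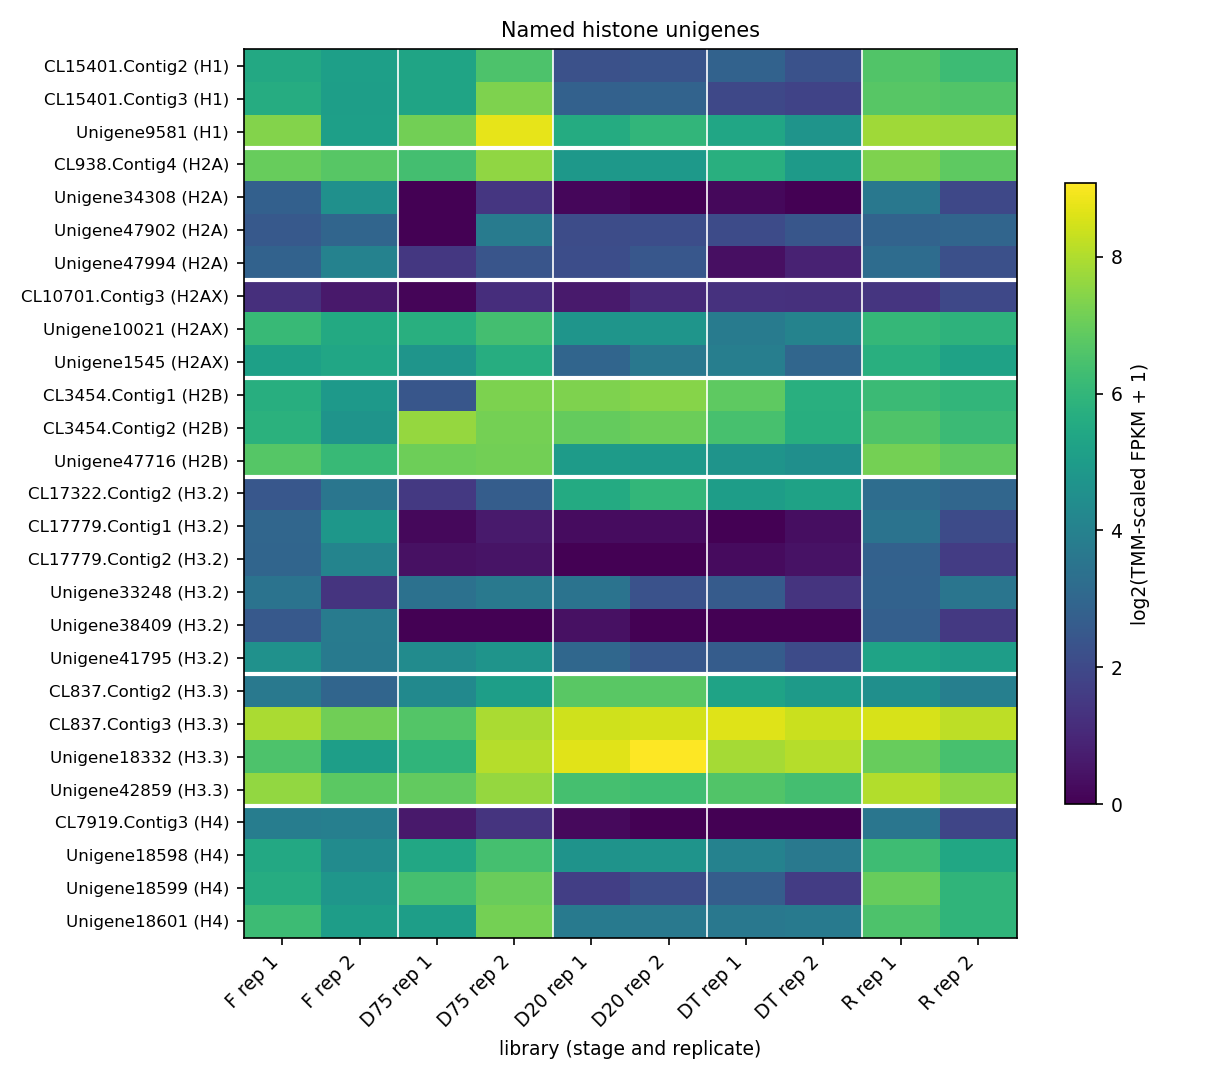
Level of the named histone unigenes (rows, grouped by role between white lines) in each of the 10 libraries (columns), as log2 of the TMM-scaled FPKM plus 1. The H1 unigenes of CL15401 and the H4 unigene Unigene18599 are darker at D20 and DT, the H3.2 unigene CL17322.Contig2 and the H3.3 unigenes CL837.Contig2 and Unigene18332 are lighter there.

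H2A and H2B form the dimers of the nucleosome core. Of 8 H2A unigenes 2 were lower at D20 and 4 at DT, and the most abundant, CL938.Contig4, had 123 and 104 in F, 82 and 190 in D75, 27.5 and 29 in D20, 52.2 and 30.1 in DT, and 159 and 114 in R. Its log2 at D20 was -2.01 ± 0.47 (adjusted p = 0.00668), lost without either D20 library. The H2AX variant, which is phosphorylated at DNA breaks, had 5 unigenes, of which 2 were lower at D20 and at DT and higher at R than at both. Unigene10021 had 68.7 and 44.7 in F, 25.7 and 25.5 in D20, 12.7 and 15.9 in DT, and 64.8 and 57.7 in R, so that R lay between the F libraries. The log2 at DT was -1.99 ± 0.39 (adjusted p = 0.00382).

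Of the 24 H2B unigenes, 5 were lower and 2 higher at D20 than at F (20.8% and 8.33%, against 17.8% and 14.0% of all unigenes). At R, 9 (37.5%) were higher than at DT, against 9.3% of all unigenes. Unigene47716 had 102 and 68.6 in F, 134 and 141 in D75, 30.3 and 29.2 in D20, 25.3 and 21.9 in DT, and 145 and 115 in R. It was higher at R than at DT by a log2 of 2.46 ± 0.38 (adjusted p = 0.00163) in all fits that left out 1 library. CL3454.Contig2 had 54.4 and 24.7 in F, 199 and 146 in D75, 120 and 130 in D20, 85.3 and 51 in DT, and 93.9 and 72.3 in R, and rose at D20 by a log2 of 1.65 ± 0.46 (adjusted p = 0.0168), a call lost without F replicate 2 or either D20 library.

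The H3 forms differed by type in their calls. H3.2 is the plant form laid down mainly at replication, and of its 13 unigenes 5 were lower and 1 higher at D20 than at F, 3 were lower at D75, and 5 were higher and 1 lower at R than at DT. H3.3 is laid down outside replication, in transcribed regions, and of its 11 unigenes 5 were higher and none lower at D20 than at F, 3 were higher at DT, and 3 were lower and 1 higher at R than at D20. The median log2 at D20 was -0.81 for H3.2 and 1.26 for H3.3. The summed H3.2 level did not fall at D20, with 79.4 and 91.3 in F and 80.5 and 86.3 in D20. This D20 sum includes CL17322.Contig2, the H3.2 unigene that rose. At DT the H3.2 sum was 49.6 and 53. The H3.3 sum was 691 and 379 in F and 1154 and 1328 in D20. Both counts are small, and the difference between the 2 types was not tested.

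CL17779.Contig1, an H3.2 unigene, had 7.03 and 26.7 in F, 0.156 and 0.583 in D75, 0.237 and 0.243 in D20, 0 and 0.267 in DT, and 9.9 and 3.2 in R. It was already lower at D75 than at F (log2 -5.44 ± 0.97, adjusted p = 0.0207), a call lost without F replicate 2. CL17779.Contig2 had 6.74 and 16 in F, 0.327 and 0.408 in D75, none at D20, 0.197 and 0.373 in DT, and 6.14 and 2.05 in R, at least 42.2-fold lower at D20 than at F (adjusted p = 3.9e-04). Unigene38409 had 4.86 and 12.8 in F, 1 library with 0.328 among the 6 dehydrated ones, and 5.68 and 1.85 in R. All 3 were present in both libraries of F and R and nearly absent between.

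Unigene41795, likewise H3.2, stayed at 19.7 and 24.8 at D75 against 23 and 12.4 in F, had 7.24 and 4.73 in D20 and 5.26 and 3.17 in DT, and reached 37.7 and 32.1 in R, a log2 of 3.05 ± 0.48 over DT (adjusted p = 0.00175). CL17322.Contig2 was the H3.2 unigene that rose, with 4.48 and 10.9 in F, 1.85 and 5.34 in D75, 45.7 and 63.6 in D20, 32 and 36.5 in DT, and 8.38 and 7.04 in R. Its log2 was 2.82 ± 0.55 at D20 against F (adjusted p = 0.00225) and -2.82 ± 0.54 at R against D20 (adjusted p = 0.00298), in all fits that left out 1 library.

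Among H3.3, CL837.Contig2 had 11.7 and 6.84 in F, 18.6 and 32.7 in D75, 106 and 108 in D20, 37.9 and 29.6 in DT, and 22 and 14.3 in R. Both D20 libraries lay above all others and R above F without overlap. It rose by a log2 of 3.51 ± 0.46 at D20 (adjusted p = 2.1e-04) and was lower at R than at D20 by 2.56 ± 0.44 on the log2 scale (adjusted p = 0.00153). Unigene18332 had 92.2 and 33.4 in F, 60.7 and 266 in D75, 411 and 541 in D20, 230 and 271 in DT, and 124 and 85.4 in R. Its log2 at D20 was 2.91 ± 0.67 (adjusted p = 0.00632), lost without F replicate 2. Unigene42859 went against them at R, with 84.6 and 76.7 in D20 and 260 and 185 at R (log2 1.46 ± 0.43, adjusted p = 0.0262), a call lost without either library of D20 or R. CL837.Contig3, with 242 and 139 in F, 343 and 364 in D20, and 370 and 286 in R, was not called.

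H4 completes the core with H3. Of its 28 unigenes, 6 were lower and 3 higher at D20 than at F (21.4% and 10.7%, against 17.8% and 14.0% of all unigenes). The median log2 at D20 was -0.31, near the -0.33 of all unigenes. At DT, 7 were lower than at F, and 7 were higher at R than at DT. The summed scaled FPKM was 363 and 211 in F, 338 and 740 in D75, and 328 and 334 in D20. It was 187 and 146 in DT and 538 and 345 in R, so the sum was lowest at DT and not at D20. Unigene18599 had 48.7 and 26.3 in F, 84.2 and 128 in D75, 2.19 and 3.27 in D20, 5.39 and 2.08 in DT, and 125 and 61.1 in R. It fell by 3.78 ± 0.59 on the log2 scale at D20 (adjusted p = 6.1e-04) and was higher at R than at DT by 4.64 ± 0.6 (adjusted p = 7.0e-04), in all fits that left out 1 library. D75 and R both lay above F without overlap, at an adjusted p of 0.516 for R. CL7919.Contig3 had 13.3 and 14.1 in F, 0.523 and 1.57 in D75, 0.159 and 0 in D20, none at DT, and 10.8 and 2.69 in R, at least 24.1-fold higher at R than at DT (adjusted p = 0.00346). Unigene9534, named after its values were seen, rose at D20 to 83.4 and 70.4 from 17.6 and 16 in F, a log2 of 2.19 ± 0.5 (adjusted p = 0.00581), lost without F replicate 2.

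The centromeric H3 form, which marks the site of kinetochore assembly, had 4 unigenes, all at or below an FPKM of 2 in any library. Unigene38673 had 1.48 and 0.467 in F, 0.204 and 1.27 in D75, none at D20, 0 and 0.117 in DT, and 1.85 and 0.699 in R, at least 8.01-fold higher at R than at D20 (adjusted p = 0.0226), a call lost without either D20 library or R replicate 1. Of the 6 H3 unigenes whose name gives no type, 2 were lower at D20 and 3 higher at R than at D20.

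**Figure D5:**
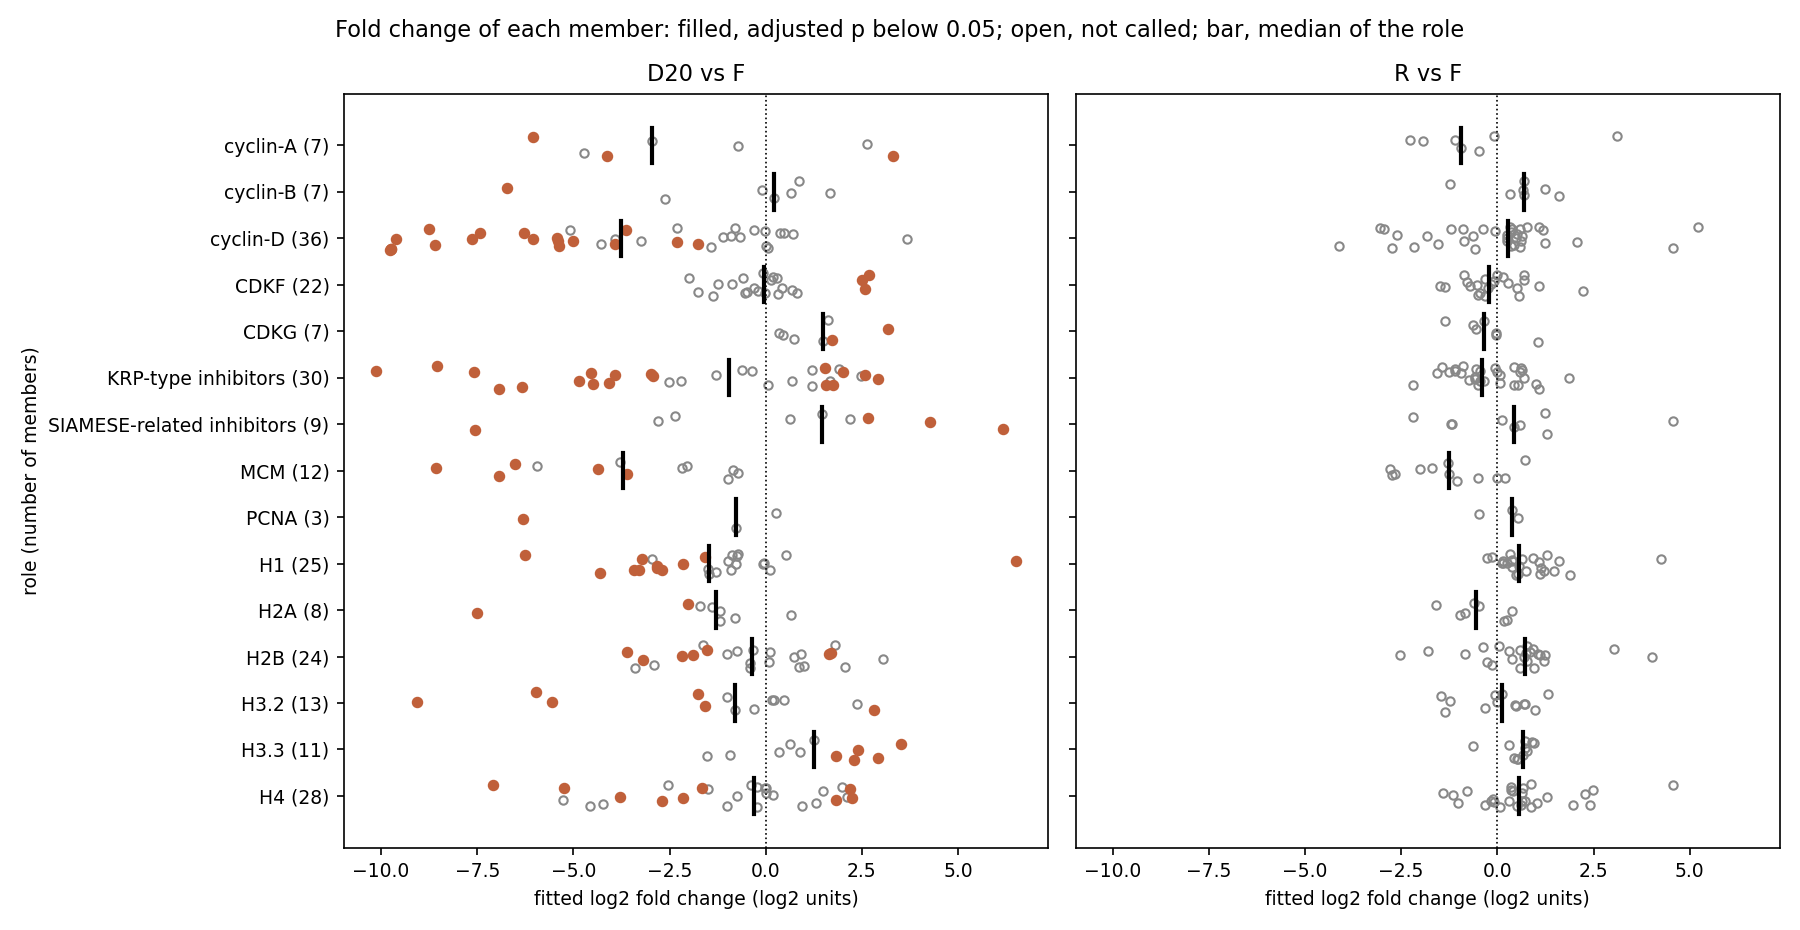
Fitted log2 fold change of each member (x axis) by role (y axis, number of members in parentheses) at D20 against F and at R against F, filled where adjusted p was below 0.05, with a bar at the role median. Filled points lie on both sides of 0 in the left panel and none is filled in the right, where the bars for MCM and A cyclins lie below 0 and those for most histones above 0.

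Whether transcripts of dividing cells were back at R can thus be stated as levels. The calls of R against DT and D20 include D cyclins, A cyclins, MCM2, core histones and H1, and no member was called between R and F. They also include KRP-type inhibitors, which hold the cycle back. Of these 30, 13 were higher and 3 lower at R than at D20. Against DT, 4 were higher and 2 lower (13.3% and 6.67%, against 9.3% and 5.96% of all unigenes). Their summed level at R was below F, at 73.1% (78.0% without F replicate 1, 69.2% without F replicate 2). The summed level at R was 60.2% of F for MCM (47.2% without F replicate 1, 83.2% without F replicate 2). In the same order it was 64.2% for A cyclins (46.9% and 102%) and 87.2% for D cyclins (76.3% and 102%). The median log2 of R against F was -0.94 for A cyclins but 0.29 for D cyclins, so the D cyclin sum and median lay on different sides of F. The summed level at R was 117% of F for PCNA, 103% for H2A and 105% for H3.2. For PCNA the sum was already 80.7% of F at D20 and 222% at DT. Both R libraries lay below both F libraries in CL15871.Contig1, the PCNA unigene lower at D20, and above them in CL5264.Contig1. The median log2 of R against F was -0.54 for H2A. For H2B the sum at R was 153% of F (194% without F replicate 1, 126% without F replicate 2). In the same order it was 154% for H4 (209% and 122%) and 207% for H1 (325% and 152%). Of the 25 H1 unigenes, 16 had their highest stage mean at D75 and 7 at R. Outside the members, the replication enzymes summed to 133% of F at R, with a median log2 of -0.36. Cyclins of other classes (138%), histones described as Probable or PREDICTED (144%) and histone chaperones (104%) also lay above F. Below F were origin licensing (91.4%), APC/C (88.0%), G1/S and G2/M regulators (82.9%) and nucleotide supply (79.7%). So were CDC2 homologs (77.2%), MCM7 with MCM10 (74.1%), mitosis and cytokinesis (66.7%) and G2/mitotic-specific cyclins (59.2%).

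Lists of markers of other cell types all had a larger share lower at D20 than the 17.8% of all unigenes. The shares were 32.3% for shoot meristem, 75.0% for guard cells, 46.2% for trichomes, 44.0% for vascular and 44.4% for root unigenes. For trichomes 30.8% were also higher, against 14.0% of all unigenes. The sums at D20 went different ways: 59.1%, 3.26%, 145%, 123% and 56.2% of F, in the same order. The list of shoot meristem and young primordium genes, 93 unigenes, had 30 lower and 2 higher calls at D20 against F, and 22 higher and 5 lower at R against DT, and summed to 310 to 380 at F, 321 to 369 at D75, 191 to 216 at D20, 207 to 228 at DT, and 347 to 388 at R. No SHOOT MERISTEMLESS unigene was among those tested. The aintegumenta unigene Unigene39784, 1 of the 93 and picked after its values were seen, went against the list at R, where the list summed to 107% of F. It was scarce, with 1.16 and 2.38 in F, 0 at D75, D20 and DT, and 0 and 0.296 in R. Of 20 guard cell lineage unigenes, 15 were lower at D20, and 9 were higher at R than at DT, with sums of 126 and 106 in F, 25.1 and 50.1 in D75, 3.83 and 3.73 in D20, 11.1 and 6.28 in DT, and 117 and 70.4 in R. Of 13 trichome unigenes, 4 were higher and 6 lower at D20, and their sum was 25.5 and 29.6 in F, 40.7 and 39 in D20, 22.7 and 24.9 in DT, and 29.1 and 21 in R. Of 25 vascular unigenes, 1 was higher and 11 lower at D20, while their sum was 88.7 and 75.2 in F, 113 and 88.2 in D20, 153 and 124 in DT, and 145 and 109 in R. Of 27 root unigenes, 1 was higher and 12 lower at D20, with sums of 86 and 62.8 in F, 40.4 and 43.1 in D20, 73.5 and 72 in DT, and 62.3 and 71.2 in R. The part of these cell types in the levels of the members was not tested.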

How the data were processed

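RNA from leaves of 10 samples was sequenced, and 1 table of fragment counts and FPKM per unigene was used. Per the study's methods, the authors cleaned paired reads (SeqPrep, Sickle), assembled unigenes de novo (Trinity) and estimated abundance with RSEM; no genome was used. The deposited counts were whole numbers per unigene and library and the deposited FPKM values followed from them, to within 5e-05. The 85267 of 142473 unigenes that reached an FPKM of 1 in 2 or more libraries were tested with edgeR 4.0.16, using the quasi-likelihood test, TMM scaling, 1 coefficient per stage over all 10 libraries and Benjamini-Hochberg adjustment over all of them, with calls at an adjusted p below 0.05. Levels in the text are FPKM divided by TMM factors; folds against a stage with no fragment used a floor of 3 fragments over its 2 libraries, and counting intervals cover counting error only.

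Members were sorted into 24 roles by description. Named are the 3 most abundant members of each role, the 5 largest called changes in each direction and comparison with a scaled FPKM of at least 3, and every B cyclin and PCNA member, and a few others are marked in the text. The members and lists were chosen with earlier results of these data known. Alternatives were DESeq2 1.42.0, limma 3.58.1 on log2(FPKM + 0.1), edgeR's exact test, median-of-ratios scaling, no filter, the 4 libraries compared alone, counts summed per assembly cluster, a replicate block, thinning to the shallowest library, a stricter threshold and leaving out each library. The exact test, thinning and a count without members of doubtful origin were chosen after seeing the data. Of the 279 members, 150 share an assembly cluster with another, so fragments may be divided among near-identical contigs, and antisense transcripts cannot be told apart without strand.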

Additional observations from a re-analysis of the deposited data

How the results depend on the processing

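Of the 184 named and called comparisons, 184 were kept by edgeR's exact test, 180 by median-of-ratios scaling, 179 without the filter, 175 by DESeq2, 173 in fits of the 4 libraries compared, 170 by limma, 167 with fragments summed per cluster and 149 after thinning to the shallowest library. Summing per cluster reversed CL2954.Contig15 at D20 against F (log2 -0.26) and CL11021.Contig1 at D20 (-1.28) and DT (-0.3), where the alternative adds the other contigs of the cluster. The number of members called moved most at D75 against F, from 14 to 24 with DESeq2, 33 without the filter, 0 in the 4-library fit, 7 per cluster, 34 by the exact test and 0 at an adjusted p of at most 0.001 with a fold of at least 2. That stricter threshold left 26 of 102 at D20 against F, 13 of 84 at DT against F, 6 of 65 at R against DT and 15 of 94 at R against D20. Per cluster the count at D20 was 63 of 169 clusters, since fewer units were tested. The 4-library fit called 127 at DT against F, 10 at R against F and 110 at R against DT; thinning left 59 at R against D20, the exact test called 1 and the fit without the filter 3 at R against F. The cause of these shifts was not tested. Leaving out 1 library at a time gave 0 to 67 members at D75, 59 to 137 at D20, 42 to 125 at DT and 0 to 6 at R against F, 21 to 121 at R against DT and 38 to 138 at R against D20. Median-of-ratios scaling moved the median log2 of all unigenes by up to -0.102 (DT against F), DESeq2 by up to -0.121 and limma by up to -0.523.

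Same-numbered libraries of different stages deviated together little (correlations from -0.194 to 0.075), so the numbers were not taken as pairs. With a replicate block the counts were 12 at D75, 94 at D20, 75 at DT, 0 at R against F, 66 at R against DT and 91 at R against D20. Depth limits members at 0 in a stage: 3 fragments, the limit that a count of 0 allows, are 2.36e-05% to 6.63e-05% of a library.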

Other observations

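Histone chaperones, which carry histones to and from DNA, had 12 higher and 1 lower call among 58 unigenes at D20 against F (20.7% and 1.72%, against 14.0% and 17.8% of all unigenes), and 12 were lower and 2 higher at R than at D20. Their summed scaled FPKM was 214 and 179 in F, 275 and 254 in D75, 309 and 322 in D20, 294 and 317 in DT, and 198 and 211 in R, so both F and both R libraries lay below all the dehydrated ones. None of them was called between R and F.

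Cyclins of other classes, 35 unigenes, had 6 higher and 6 lower calls at D20 against F. The cyclin-U4-1 Unigene10075, picked after its values were seen, had 27.8 and 28.9 in F, 2.24 and 1.95 in D75, 0.31 and 0.106 in D20, 0.246 and 0.116 in DT, and 15.5 and 6.4 in R. It was lower at D75 than at F by a log2 of -3.73 ± 0.52 (adjusted p = 0.0104), a call lost without F replicate 2, and higher at R than at DT by 5.83 ± 0.68 (adjusted p = 4.3e-04). Both R libraries lay below both F libraries, at a log2 of -1.38 ± 0.47 (adjusted p = 0.443).

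The calcyclin-binding proteins, which are no cell cycle genes by name alone, rose: of 4 unigenes, 2 were higher at D20 and 3 in DT than at F, and 3 were lower at R than at DT. CL10147.Contig4 had 7.2 and 5.85 in F, 10 and 20.8 in D75, 43.9 and 41.8 in D20, 30.7 and 23.2 in DT, and 7.28 and 10 in R, a log2 of 2.7 ± 0.44 at D20 against F (adjusted p = 7.5e-04).

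In 13 histone members the best Nr hit lay outside flowering plants. Their summed scaled FPKM was 52.6 and 9.97 in F, 51.7 and 61.4 in D75, 39.1 and 16 in D20, 12.4 and 8.27 in DT, and 44.6 and 55.1 in R, and 1 was higher and 1 lower at D20 than at F. Without these and the calcyclin-binding proteins, 26 of the 262 members left were higher and 72 lower at D20 than at F.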
